A study of Mus musculus with 5 samples.

Results

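The glycolysis and hypoxia response genes are 33 genes chosen by symbol: transporters of glucose and lactate, enzymes from the first to the last step of glycolysis, enzymes that direct pyruvate, the oxygen sensors and *Hif1a*, and well-known targets of hypoxia-inducible factor (HIF). All 33 symbols were listed in the deposited table, with 70 of its 22227 transcripts, among 12588 genes in all. RNA-Seq was performed on cultured mouse neural stem and progenitor cells (NSPCs) in 2 groups, WT litter mates (replicates 1 and 4, n = 2) and p75NTR-/- mice (replicates 1, 2 and 4, n = 3), whose germline knockout is of the p75 neurotrophin receptor. All mice were C57BL/6J, and all cultures were untreated and proliferating with EGF and FGF-2, at 20 ng/ml each. The sample labels give E12.5 embryos as the source, while the study's methods describe cells from the adult subventricular zone. Both are given here, and which source the values fit was not tested. The study describes 4 replicates from independent preparations, whereas the series holds 2 libraries labelled WT and 3 labelled p75NTR-/-. What a shared replicate number stands for is not given.

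Glycolysis splits glucose into pyruvate in a preparatory phase that spends ATP and a payoff phase that regains it, and lactate dehydrogenase turns pyruvate into lactate when it is not burned in mitochondria. When oxygen falls, the prolyl hydroxylases encoded by *Egln1* and *Egln3* no longer mark the HIF-1α protein for destruction, and HIF binds short DNA motifs near its target genes. Many glycolytic enzymes, *Slc2a1*, *Vegfa*, *Bnip3* and the hydroxylase genes themselves are known targets. Neural progenitors in culture are known for a high rate of glycolysis.

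The level of a gene is given as the sum of its transcripts in normalized counts, that is, read counts divided by a library size factor. Recovered totals lay between 11688211 and 14452396 counts per library, so that 3 counts, the limit used for a gene at 0, were worth 2.94 to 3.6 normalized counts. *Ngfr*, which encodes p75NTR, went against the labels, with only 1 and 2 counts under the WT label but 10, 117 and 238 counts under the p75NTR-/- label. Every direction below is therefore a direction between libraries as labelled. All 9 NSPC markers were listed, among them *Nes* and *Sox2* at 8704 to 23123 and 714 to 1517 normalized counts. *Hes5*, a Notch target, had 546 and 25.0 under the WT label and 43.5, 222 and 30.6 under the p75NTR-/- label (replicates 1 and 4, and 1, 2 and 4), and both libraries numbered 4 were the lowest. *Vim* ran the other way, with 40938 and 44562 in the libraries numbered 4 and 20556 to 23981 in the other 3. Log2 values correlated across genes, which are not independent replicates, with r = 0.992 between the 2 libraries numbered 4 and r = 0.981 between replicates 1 and 2 under the p75NTR-/- label. The other 8 pairs lay between 0.929 and 0.947, the pair numbered 1 at 0.931 among them. The counts of the libraries numbered 4 differed with a chi-square of 1.92 per gene, where counting noise alone would give about 1, and the pair is treated as 2 samples because the labels list it so.

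In bulk RNA, more cells of one kind and more RNA per cell cannot be told apart. The 33 genes together held 1.75% (replicate 1) and 2.61% (replicate 4) of all normalized counts in the WT libraries. They held 1.29%, 1.5% and 2.76% in replicates 1, 2 and 4 labelled p75NTR-/-. The 2 labels thus overlapped, and both libraries numbered 4 stood above the other 3.

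**Figure D1:**
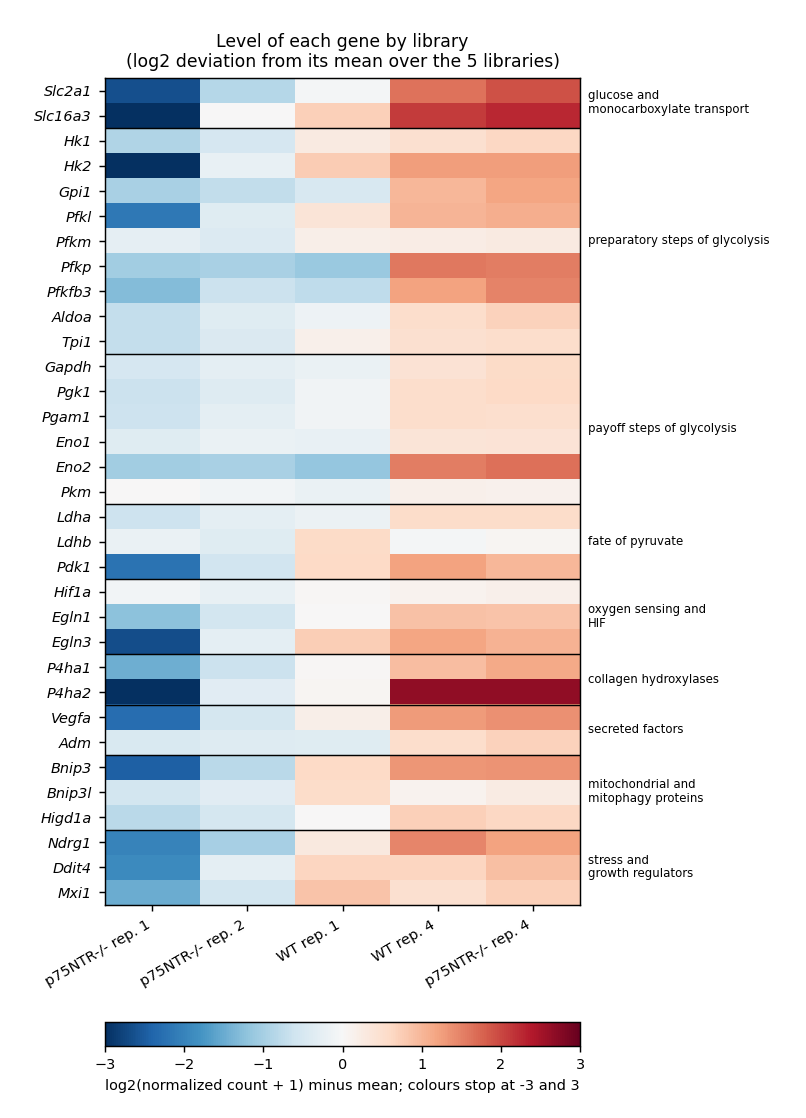
Each row is 1 of the 33 genes, grouped by role, and each column 1 library; the colour gives log2(normalized count + 1) minus the gene's mean over the 5 libraries, red above and blue below. Both columns of replicate 4 are red for most genes whichever label they carry, and replicate 1 labelled p75NTR-/- is the bluest column.

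To ask whether the genes differed with the p75NTR label, all 12588 gene sums were compared with limma on log2(normalized count + 1), and a gene was called at a mean of at least 50 normalized counts, a fold change of at least 1.5 and an adjusted p below 0.05. All 33 genes had a mean of at least 50. None was called (0 of 33, against 0.00794% of all genes), and 0 of 33 had an unadjusted p under 0.05 (2.08% of all genes). Adjusted p-values in limma ran from 0.93 to 0.98. With edgeR and DESeq2 on the recovered counts, 0 of 33 were called and 0 of 33 had an unadjusted p under 0.05, against 2.11% and 2.99% of all genes with such a p and 0% and 0.0556% called. By mean log2 value, 32 of 33 were lower under the p75NTR-/- label (49.3% of all genes), *Pkm* being the exception, and the median difference was −0.54 on the log2 scale, against 0.00 for all genes. In no gene did all 3 libraries labelled p75NTR-/- lie below both labelled WT (0 of 33, against 6.96% of the genes with a mean of at least 50), and in none did all lie above (0 of 33, against 7.76%). These counts rest on replicate 4 labelled p75NTR-/-. Without it, 0 of 33 were called (lowest adjusted p = 0.40 in limma), 16 of 33 had an unadjusted p under 0.05 (10.9% of all genes) and 28 of 33 were lower in every library under its label (21.5% of genes). Without replicate 1 labelled WT, 8 of 33 were lower in every library (19.3% of genes). Without replicate 4 labelled WT, 1 of 33 had an unadjusted p under 0.05 (14.0% of all genes), 3 of 33 were lower (29.9%) and 3 were higher (35.0%) in every library.

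The 2 libraries numbered 1 and the 2 numbered 4 gave different pictures of the label. Within number 1, the median difference of the p75NTR-/- from the WT library was −0.88 (log2), ranging from −5.83 for *Slc16a3* to 0.21 for *Pkm*. Within number 4 it was 0.06, and no gene differed by more than 0.29 in size. Of the 33 genes, 25 were higher in the p75NTR-/- library of that pair. A pair of single libraries has no replicate check, and an exact test of 2 against 3 libraries cannot go below p = 0.1.

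**Figure D2:**
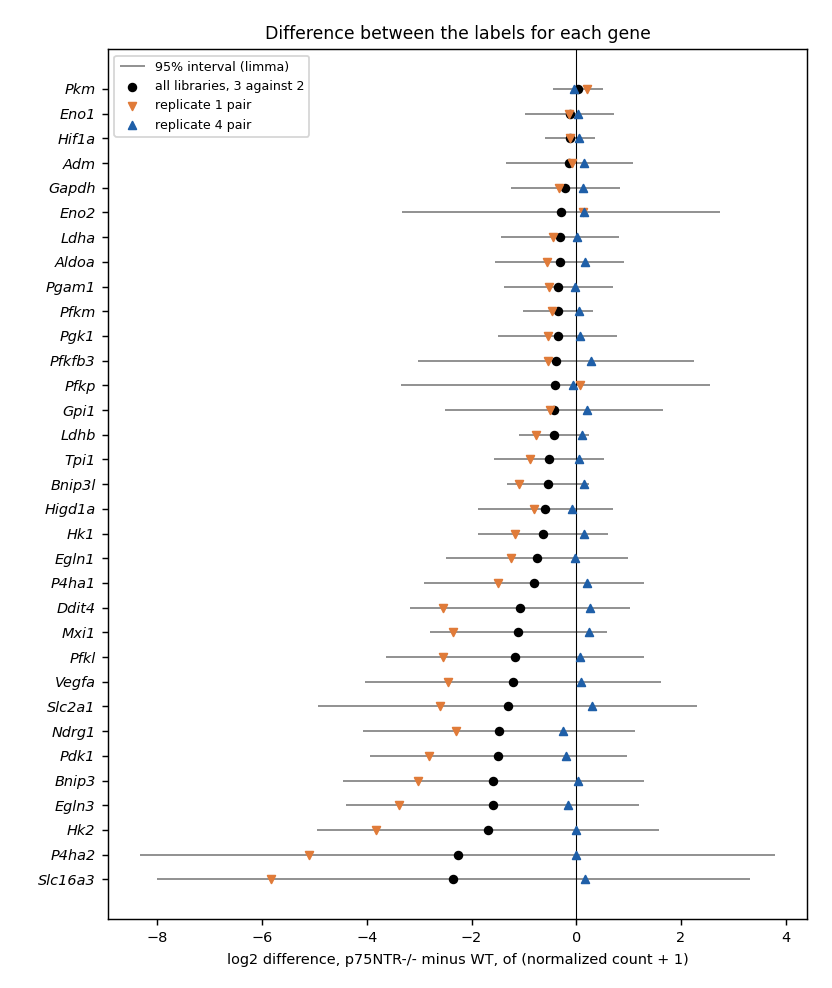
For each gene, the black point is the log2 difference of p75NTR-/- minus WT over all libraries with its 95% interval from limma, and the triangles are the differences within the replicate 1 pair (orange) and within the replicate 4 pair (blue). Every interval crosses 0, the blue triangles stay within 0.3 of it, and the orange ones reach −5.83.

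The values across libraries followed an order that the labels do not describe. Both libraries numbered 4 lay above the other 3 in 29 of 33 genes, against 23.0% of the genes with a mean of at least 50, and below them in 0 of 33, against 22.0%. The 4 exceptions were *Ldhb*, *Bnip3l*, *Ddit4* and *Mxi1*. Replicate 1 labelled p75NTR-/- was the lowest of the 5 libraries in 27 of 33 genes (18.7% of genes). In 22 of 33 genes (4.62% of genes) the full order was replicate 1 labelled p75NTR-/-, then replicate 2 labelled p75NTR-/-, then replicate 1 labelled WT, then both libraries numbered 4. This order was noticed in the values and is a description of these 5 libraries.

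The spread between libraries was wide. The highest library held a median of 4.49 times the lowest (1.52 times over all genes with a mean of at least 50), and 18 of 33 genes reached 3 times (7.53% of genes). The ratio ran from 1.28 for *Pkm* to 425 for *P4ha2*, whose lowest library rests on 1 count, so that its interval from counting error alone runs from 75.8 to 16826. *Slc16a3* had a ratio of 331 (59.0 to 13115), also against 1 count. The widest ratios after these belonged to *Slc2a1* (23.7), *Hk2* (20.1), *Egln3* (14.5) and *Bnip3* (13.9).

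HIF is known to bind a core of ACGTG or GCGTG. The 250 bases before the RefSeq start site (GRCm38.p6) were searched for both motifs on both strands, with overlapping matches counted separately. Of the 31 genes with a promoter entry, 25 (80.6%) held at least 1 match, and *Bnip3l* and *Ndrg1* had no entry. The RefSeq start lay within 100 bases of the most abundant transcript in 24 of the 31. For the rest, *Gapdh* at 694 bases among them, the window may not be the promoter of the transcript measured. At least 1 match was found in 38.6% of all 32851 promoters and in 56.0% of the 12710 promoters of genes in the table. Positions are counted back from the start site, −1 being the base before it. The 6 genes with the widest ratio between libraries among those whose RefSeq start lies within 100 bases of their most abundant transcript are shown, 5′ to 3′ on the strand of the gene, with the matches of either strand in capitals. They are *P4ha2* (chr11:54100674-54100923, plus strand, matches from −107, −78 and −69), *Slc2a1* (chr4:119108495-119108744, plus strand, −61 and −36), *Hk2* (chr6:82774455-82774704, minus strand, −226 and −52), *Egln3* (chr12:54203875-54204124, minus strand, −229), *Bnip3* (chr7:138909507-138909756, minus strand, −117, −108, −107, −99 and −35) and *Vegfa* (chr17:46032378-46032627, minus strand, no match in this window).
P4ha2: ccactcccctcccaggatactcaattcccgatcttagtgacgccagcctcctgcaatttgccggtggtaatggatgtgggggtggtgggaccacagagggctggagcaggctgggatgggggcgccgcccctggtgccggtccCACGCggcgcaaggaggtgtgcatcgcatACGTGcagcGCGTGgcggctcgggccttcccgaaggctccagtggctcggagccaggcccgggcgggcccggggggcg
Slc2a1: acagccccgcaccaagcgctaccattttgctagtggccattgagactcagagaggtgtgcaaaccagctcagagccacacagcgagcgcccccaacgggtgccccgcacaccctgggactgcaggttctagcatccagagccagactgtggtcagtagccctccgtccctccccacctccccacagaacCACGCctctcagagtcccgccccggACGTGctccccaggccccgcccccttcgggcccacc
Hk2: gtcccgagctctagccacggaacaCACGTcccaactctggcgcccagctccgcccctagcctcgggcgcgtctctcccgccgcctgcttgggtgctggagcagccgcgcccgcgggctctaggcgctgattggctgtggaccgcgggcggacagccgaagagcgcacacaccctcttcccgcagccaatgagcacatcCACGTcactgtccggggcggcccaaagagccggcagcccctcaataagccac
Egln3: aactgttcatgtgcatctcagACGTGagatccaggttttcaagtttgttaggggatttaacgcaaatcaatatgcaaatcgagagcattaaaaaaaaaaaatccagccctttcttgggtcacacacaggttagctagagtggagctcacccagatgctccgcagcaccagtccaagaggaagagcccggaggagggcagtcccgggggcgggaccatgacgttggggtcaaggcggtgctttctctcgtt
Bnip3: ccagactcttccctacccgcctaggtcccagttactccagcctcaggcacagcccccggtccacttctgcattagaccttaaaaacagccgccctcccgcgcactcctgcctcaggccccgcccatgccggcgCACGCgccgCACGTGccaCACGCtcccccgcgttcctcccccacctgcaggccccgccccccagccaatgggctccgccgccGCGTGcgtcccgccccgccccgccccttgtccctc
Vegfa: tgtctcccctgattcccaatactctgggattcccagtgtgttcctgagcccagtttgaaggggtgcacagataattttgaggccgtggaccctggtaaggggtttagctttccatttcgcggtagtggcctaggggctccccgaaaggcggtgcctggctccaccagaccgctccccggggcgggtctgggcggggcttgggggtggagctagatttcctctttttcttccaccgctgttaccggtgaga
The letters of these windows are a description, and a match is not a site shown to be bound. *Bnip3* held the most matches of the 31 genes with an entry, 5, of which the pair from −108 and −107 overlap in the palindrome CACGTG.

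Of the transport genes, *Slc2a1* encodes GLUT1, the main glucose carrier of many cell types. Under the WT label its levels were 1213 (replicate 1) and 3864 (replicate 4) normalized counts, and under the p75NTR-/- label 199.9, 698 and 4733 (replicates 1, 2 and 4); values below keep this order. Its 2 highest libraries were the ones numbered 4, 1 under each label, and they exceeded the next one at least 3.19 times. The difference between the labels was −1.31 ± 1.41 (log2, SE; adjusted p = 0.93 in limma). *Slc16a3*, which encodes the lactate exporter MCT4, had 112 and 291 normalized counts under the WT label and 0.99, 68.5 and 328 under the p75NTR-/- label. The value of 0.99 is a single count, below the limit of 3 counts, and the difference of −2.35 ± 2.21 (adjusted p = 0.93 in limma) rests largely on it: without replicate 1 labelled p75NTR-/- it was −0.27.

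**Figure D3:**
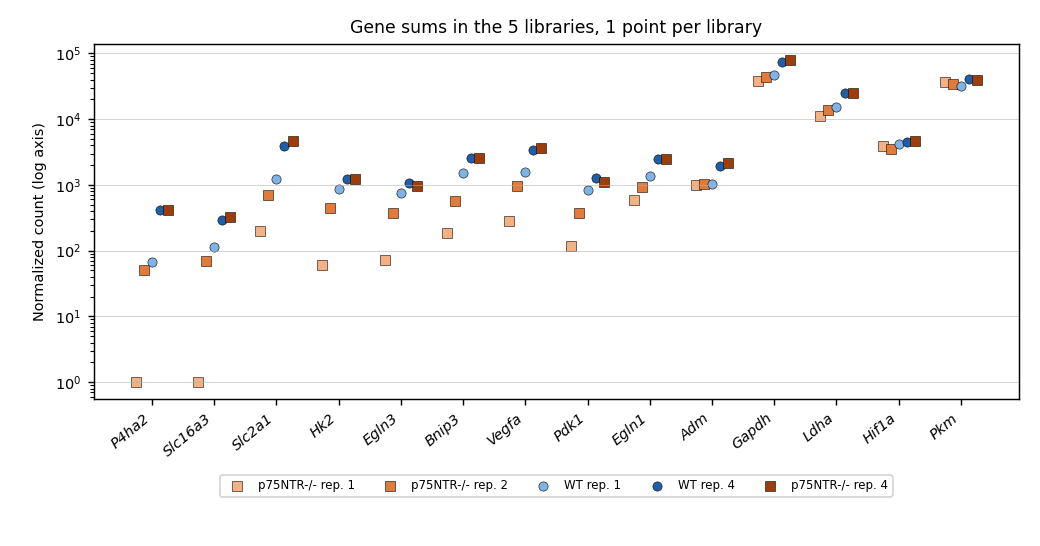
Normalized counts on a log axis for 14 of the 33 genes, 1 point per library, circles for WT and squares for p75NTR-/-, with the darkest symbols for replicate 4. For *P4ha2* to *Pdk1* the order from replicate 1 labelled p75NTR-/- up to the 2 libraries numbered 4 repeats, while *Hif1a* and *Pkm* lie close together.

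In the preparatory steps, *Hk2*, the inducible hexokinase that traps glucose in the cell, had 878 and 1234 normalized counts under the WT label and 61.4, 442 and 1236 under the p75NTR-/- label. Replicate 1 labelled p75NTR-/- was 14.3 times below its WT counterpart of the same number, while the 2 libraries numbered 4 differed by 0.00 on the log2 scale. *Hk1*, the constitutive hexokinase, spanned less, from 2075 to 5998 normalized counts, a ratio of 2.89. The 3 phosphofructokinase genes, for the committed step, differed in their ranges. *Pfkl* ran from 511 to 4846 normalized counts, with 2967 and 4597 under WT and 511, 1776 and 4846 under p75NTR-/-. *Pfkm* ran only from 3211 to 5219. *Pfkp* split into 781 and 752 in the libraries numbered 4 against 121, 127 and 132 in the other 3.

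*Pfkfb3* makes fructose 2,6-bisphosphate, the strongest activator of phosphofructokinase. Its values were 689 and 2717 normalized counts under WT and 471, 747 and 3305 under p75NTR-/-, so that the lower of the libraries numbered 4 lay 3.64 times above the highest of the rest. *Gpi1*, the isomerase of the second step, split in the same way at a higher level, with 51733 and 59667 normalized counts in the libraries numbered 4 against 18749 in the other WT library and 13299 and 15732 in the other 2 labelled p75NTR-/-. *Aldoa* (11577 to 30284) and *Tpi1* (5411 to 12838), which yield and interconvert the triose phosphates, had ratios of 2.62 and 2.37. All 9 genes of these steps were higher in both libraries numbered 4, and their median difference between the labels was −0.42 (log2), with 0 of 9 called.

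In the payoff steps, *Gapdh* is often taken as a reference gene. It had 47270 and 73194 normalized counts under WT and 37720, 43645 and 79841 under p75NTR-/-, a ratio of 2.12 between the extremes. *Pgk1* (14869 to 35202), *Pgam1* (5714 to 12721) and *Eno1* (21203 to 36536), which follow it in the pathway, had ratios of 2.37, 2.23 and 1.72. In these 4 genes both libraries numbered 4 lay above the highest of the other 3, by at most 1.56 times at the lower of the pair. *Eno2*, the enolase of neurons, was low, with 47.1 and 310 normalized counts under WT and 51.5, 54.1 and 341 under p75NTR-/-. It split like *Pfkp*, with the libraries numbered 4 at least 5.73 times above the other 3. *Pkm*, the pyruvate kinase of the last step, was the flattest of the 33: 31834 and 40699 normalized counts under WT and 36741, 34366 and 39631 under p75NTR-/-, a difference of 0.03 ± 0.19 (log2, SE; 95% interval −0.45 to 0.52). Reads of *Gapdh*, *Pgk1*, *Eno1*, *Ldha*, *Tpi1*, *Pgam1* and *Aldoa* can be shared with near-identical copies elsewhere in the genome, which the table does not list, and their levels are uncertain to that extent.

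Per length, in the authors' TPM averaged over the 5 libraries, the most abundant genes were *Pkm* (3373), *Gapdh* (2590), *Eno1* (2486), *Gpi1* (1259), *Pgk1* (913), *Aldoa* (845), *Higd1a* (813) and *Ldha* (809). The TPM of *Pkm* and *Eno1* rests mostly on a short transcript each, *Pkm-208* of 356 bases with 2256 TPM and *Eno1-208* of 345 bases with 1433 TPM. At the low end stood *P4ha2* (5.46), *Eno2* (6.10), *Ndrg1* (6.25) and *Slc16a3* (6.56).

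Pyruvate is directed by the next group. *Ldha* and *Ldhb* encode the muscle-type and heart-type subunits of lactate dehydrogenase, and they did not follow the same libraries. *Ldha* had 15148 and 25115 normalized counts under WT and 11084, 13881 and 25227 under p75NTR-/-, with both libraries numbered 4 at the top. *Ldhb* had 15712 and 10234 under WT and 9247, 8286 and 10994 under p75NTR-/-, with replicate 1 labelled WT at the top. *Ldhb* was thus the more abundant of the pair, in normalized counts that are not per length, in replicate 1 labelled WT alone. *Pdk1*, the kinase that shuts pyruvate dehydrogenase and so keeps pyruvate out of mitochondria, had 825 and 1264 normalized counts under WT and 117, 370 and 1104 under p75NTR-/-. Its difference between the labels was −1.49 ± 0.96 (adjusted p = 0.93 in limma), with replicate 4 labelled p75NTR-/- above replicate 1 labelled WT.

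Among the oxygen-sensing genes, *Hif1a* mRNA, whose protein is controlled mainly by its stability, was nearly level, with 4234 and 4439 normalized counts under WT and 3908, 3518 and 4577 under p75NTR-/- (difference −0.12 ± 0.19, log2; 95% interval −0.60 to 0.35). The hydroxylase genes spanned more. *Egln1* had 1376 and 2507 normalized counts under WT and 582, 926 and 2474 under p75NTR-/-. *Egln3*, the more inducible of the pair, had 763 and 1051 under WT and 72.2, 372 and 947 under p75NTR-/-. Replicate 1 labelled p75NTR-/- was lowest for both, and the 2 libraries numbered 4 differed by −0.02 and −0.15 on the log2 scale (p75NTR-/- minus WT). The differences between the labels were −0.75 ± 0.68 and −1.60 ± 1.09 (adjusted p = 0.93 for both in limma).

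The HIF targets *P4ha1* and *P4ha2* encode catalytic subunits of the prolyl hydroxylase that collagen needs to fold. *P4ha1* had 3013 and 5617 normalized counts under WT and 1070, 1883 and 6480 under p75NTR-/-. *P4ha2* had 67.7 and 420 under WT and 0.99, 51.7 and 420 under p75NTR-/-. For *P4ha2* the 2 libraries numbered 4 lay 6.21 times above the next, and a single count was found in replicate 1 labelled p75NTR-/-. Its difference between the labels was −2.27 ± 2.37 (log2, SE; adjusted p = 0.93 in limma), and it was −0.19 without that library.

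Of the secreted factors, *Vegfa*, the main growth factor of blood vessels, had 1570 and 3362 normalized counts under WT and 287, 963 and 3592 under p75NTR-/-. *Adm*, the vasodilator peptide adrenomedullin, had 1049 and 1955 under WT and 985, 1038 and 2174 under p75NTR-/-. Below number 4 the 2 genes parted: the 3 other libraries spanned 5.47 times for *Vegfa* and 1.06 times for *Adm*. The differences between the labels were −1.20 ± 1.10 and −0.13 ± 0.47 (adjusted p = 0.93 and 0.98 in limma).

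At the mitochondria, *Bnip3* and *Bnip3l* encode receptors for the removal of mitochondria. *Bnip3* had 1526 and 2522 normalized counts under WT and 186, 574 and 2580 under p75NTR-/-. *Bnip3l* had 2399 and 1775 under WT and 1127, 1302 and 1953 under p75NTR-/-, its highest library being replicate 1 labelled WT. *Higd1a*, a small mitochondrial protein that aids survival in hypoxia, ran from 1051 to 3006 normalized counts, with both libraries numbered 4 on top. *Ndrg1*, a differentiation and stress gene, had 126 and 283 under WT and 24.7, 50.5 and 238 under p75NTR-/-.

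*Ddit4* (REDD1), which restrains mTORC1, had 3572 and 3531 normalized counts under WT and 608, 1855 and 4241 under p75NTR-/-. *Mxi1*, an antagonist of MYC, had 900 and 693 under WT and 176, 341 and 816 under p75NTR-/-. For *Bnip3l*, *Ddit4* and *Mxi1* replicate 1 labelled WT stood above at least 1 of the libraries numbered 4, and replicates 1 and 2 labelled p75NTR-/- stood lowest. For these 3 genes and *Ldhb*, replicate 4 labelled p75NTR-/- was the only one of its label that lay above either library labelled WT.

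The pathway genes outside the 33 were 102 further symbols in 5 lists, of which 84 were in the table and 74 had a mean of at least 50. None of them was called (0 of 74 in limma, against 0.00794% of all genes), and 1 had an unadjusted p under 0.05 (2.08% of all genes), the aldolase *Aldoc* (9882 and 5914 normalized counts under WT, and 3622, 3931 and 5541 under p75NTR-/-). In 36 of the 74 both libraries numbered 4 were above the other 3 (23.0% of genes with a mean of at least 50), in 13 below (22.0%), and 17 held the full order (4.62%). The lists differed. Of 33 other hypoxia response genes with a mean of at least 50, 23 were above in number 4 and 2 below, with a median difference of 0.99 (log2) between the libraries numbered 4 and the rest, against 1.28 for the 33 genes described here and 0.01 for all genes. *Ankrd37*, a HIF target, had 168 and 290 normalized counts under WT and 14.8, 113 and 315 under p75NTR-/-. *Ppp1r3c*, which promotes glycogen synthesis, had 4358 and 4723 under WT and 903, 1446 and 4736 under p75NTR-/-. *Igfbp3*, a carrier of insulin-like growth factors, ran another way, with 2165 and 7452 under WT and 10929, 6565 and 8397 under p75NTR-/-.

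The other lists sat near the median of all genes. Of 8 other glycolysis genes, 3 were above and 2 below in number 4 (median 0.13), among the former the second glucose carrier *Slc2a3*, with 637 and 1733 normalized counts under WT and 139.5, 356 and 2301 under p75NTR-/-, and the phosphoglucomutase *Pgm1* (1573 to 4149). Of 15 genes for pyruvate and lactate, 4 were above and 2 below (median 0.15). The kinases *Pdk2* (396 to 1213) and *Pdk4* (38.4 to 101) and the carboxylase *Pcx* (1400 to 3147) were each highest in replicate 1 labelled WT. Of 7 pentose phosphate genes, 2 were above, *G6pdx* (985 to 1733) and *Rpia* (84.4 to 167), and 2 below (median 0.02), with *Pgls* between 724 and 1013. Of 11 regulators of HIF, 4 were above and 5 below (median 0.04). *Vhl*, which carries HIF-1α to destruction, ran from 257 to 557 normalized counts and *Cited2* from 36.6 to 116, both with number 4 on top, while *Arnt2*, a partner subunit, ran from 1905 to 3337 with replicate 1 labelled WT on top.

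**Figure D4:**
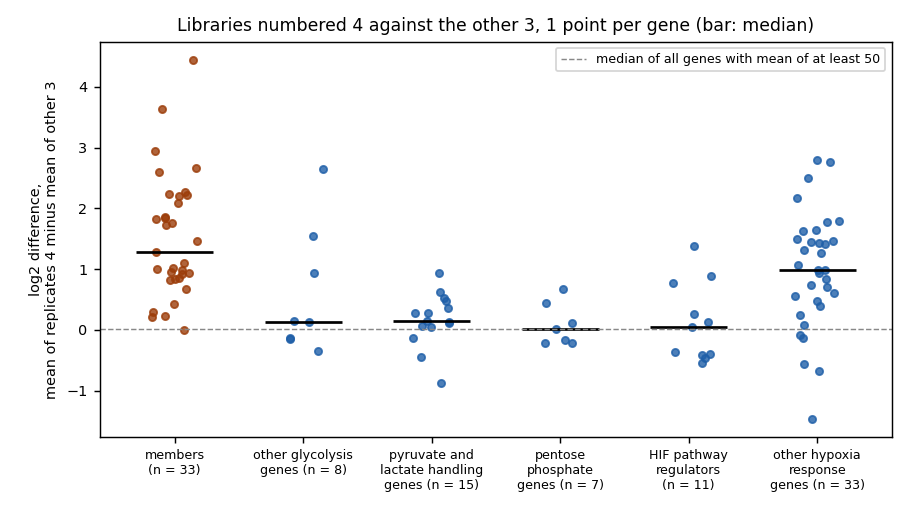
Each point is a gene with a mean of at least 50, placed by its log2 difference between the mean of the 2 libraries numbered 4 and the mean of the other 3, with a black bar at the median of its list and a dashed line at the median of all genes. The 33 members (median 1.28) and the other hypoxia response genes (0.99) sit above the dashed line, and the other 4 lists lie close to it, between 0.02 and 0.15.

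Markers of growth and of other cell types also varied between the libraries, and 0 of the marker genes were called. The 8 proliferation markers, all in the table, summed to 18892 and 28159 normalized counts under WT and to 35785, 37604 and 27052 under p75NTR-/-. They were highest in replicates 1 and 2 under the p75NTR-/- label, where most of the 33 genes were lowest, but lowest in replicate 1 under the WT label, with the libraries numbered 4 in between. The 7 astrocyte markers, also all listed, summed to 51597 and 48294 under WT and to 34062, 34659 and 50847 under p75NTR-/-. That sum was lowest in the same 2 libraries, and 2 of the 7 markers had both libraries numbered 4 on top. *Gfap*, the defining marker, had 241 and 680 under WT and 11.9, 1.2 and 746 under p75NTR-/-, with a single count in replicate 2. *Aqp4* had 395 and 696 under WT and 69.3, 114 and 566 under p75NTR-/-. *Gja1* had 6380 and 4314 under WT and 1734, 1937 and 4471 under p75NTR-/-. *Slc1a2* had 2136 and 1805 under WT and 785, 955 and 1763 under p75NTR-/-. Each of these was lowest in replicates 1 and 2 labelled p75NTR-/-. *S100b* had 1421 and 347 under WT and 475, 369 and 409.9 under p75NTR-/-, with replicate 1 under the WT label on top. *Aldh1l1* spanned only 16444 to 25549 normalized counts and *Slc1a3* 11597 to 18281.

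The neuron and oligodendrocyte lineage lists were lowest in the libraries numbered 4. Of the neuron markers 3 of 7 were listed, without *Dcx*, *Rbfox3*, *Stmn2* and *Syt1*, and summed to 9486 and 5845 under WT and 9141, 8550 and 5654 under p75NTR-/-. The 5 of 7 oligodendrocyte lineage markers in the table, without *Sox10* and *Mbp*, summed to 4807 and 2347 under WT and 4014, 5793 and 2376 under p75NTR-/-. Both lists thus ran against the 33 genes in the split between number 4 and the rest. Of 6 endothelial markers only *Kdr* and *Flt1* were listed, with a sum of 69.7 and 251 under WT and 93, 75.7 and 284 under p75NTR-/-. *Flt1* had 213 and 242 normalized counts in the libraries numbered 4 and 30.7 to 33.6 in the other 3, whereas *Kdr* had 37.5 and 42.3 in the libraries numbered 4 and 38.3 to 62.3 in the other 3. The markers *Pecam1*, *Cdh5*, *Tek* and *Cldn5* were not in the table and so lay under its listing limit, as did all 6 microglia markers. Mesenchymal markers, 2 of 6 listed, summed to 89.3 and 85.3 under WT and 260, 202 and 83.5 under p75NTR-/-. The part of cell composition and of growth in the pattern was not tested.

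Within genes, transcripts were named by rule when their mean share of the gene sum differed by at least 10 percentage points between the labels. *Eno2-201*, *P4ha2-201* and *P4ha2-202* did so. *P4ha2-202* held 53.6% and 62.4% under WT and 0%, 67.4% and 54.8% under p75NTR-/-. Its 0% rests on the single count of *P4ha2* in replicate 1 labelled p75NTR-/-. The shares of *P4ha1*, *Aldoa*, *Mxi1* and *Hif1a* are given outside this rule. *P4ha1* has 2 main transcripts of 15 exons each, *P4ha1-203* and *P4ha1-201*. *P4ha1-203* made up 48.7% and 73.9% of the gene sum under WT and 34.3%, 51.2% and 77.3% under p75NTR-/-, highest in the 2 libraries numbered 4. *P4ha1-201* took most of the rest, 46.1% and 23.6% under WT and 57.3%, 45.0% and 19.1% under p75NTR-/-. The level of *P4ha1-203* ran from 367 to 5006 normalized counts and that of *P4ha1-201* only from 612 to 1390. *Aldoa-201* held 20.2% and 42.5% of its gene under WT and 36.0%, 14.7% and 44.9% under p75NTR-/-, again highest in the libraries numbered 4. *Mxi1-203* held 20.2% and 24.3% of its gene under WT and 33.1%, 14.1% and 33.9% under p75NTR-/-, without a split by number 4. *Hif1a-201*, the main transcript, stayed between 75.3% and 88.8%. *Eno2-201* made up 100% and 86.2% under WT and 84.6%, 60.0% and 89.8% under p75NTR-/-, the lowest of these out of 54.1 normalized counts in all. These shares are estimates of Salmon from reads that overlapping transcripts share.

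**Figure D5:**
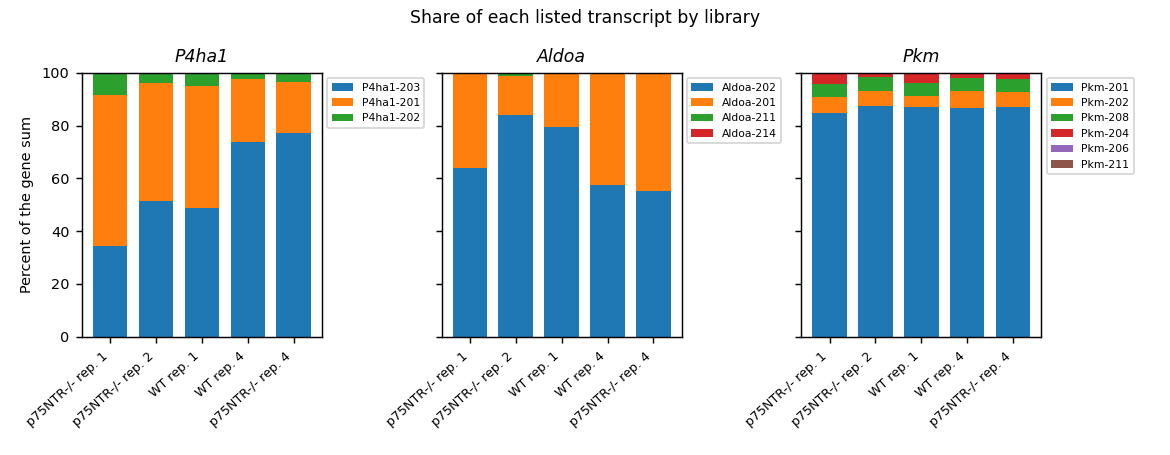
Stacked bars give the percent of the gene sum that each listed transcript holds in each library, for *P4ha1*, *Aldoa* and *Pkm*. *P4ha1-203* holds 34.3% in replicate 1 labelled p75NTR-/- and 73.9% and 77.3% in the libraries numbered 4, while *Pkm-201* stays between 84.6% and 87.6%.

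*Pkm* makes 2 full-length enzymes by a choice between 2 exons of equal length. M2 is the form of proliferating cells, though not of these alone, and M1 that of some differentiated tissues. The exons are shown because the choice between them separates the forms, with the bases that differ in capitals (GENCODE M21 on GRCm38, plus strand). Exon 9 of *Pkm-202*, the M1 form, lies at chr9:59675029-59675195, and exon 9 of *Pkm-201*, the M2 form, at chr9:59675568-59675734. Both have 167 bases, of which 64 differ (61.7% identity).
Pkm-202 (M1): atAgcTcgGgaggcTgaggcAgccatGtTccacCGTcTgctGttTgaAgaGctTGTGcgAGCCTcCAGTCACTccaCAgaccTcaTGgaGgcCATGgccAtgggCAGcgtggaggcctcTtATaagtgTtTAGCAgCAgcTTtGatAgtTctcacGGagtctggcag
Pkm-201 (M2): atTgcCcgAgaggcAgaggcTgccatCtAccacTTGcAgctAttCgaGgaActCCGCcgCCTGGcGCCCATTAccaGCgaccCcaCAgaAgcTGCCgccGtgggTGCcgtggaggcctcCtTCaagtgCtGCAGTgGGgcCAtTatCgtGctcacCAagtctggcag
The M1 form made up 4.60% and 7.01% of the 2 full-length transcripts under WT (5.80 ± 1.71%, SD, n = 2) and 6.98%, 5.76% and 5.93% under p75NTR-/- (6.22 ± 0.66%, SD, n = 3). The labels overlapped, and the M2 form was the main one in all 5 libraries, those numbered 4 included. Of the 70 transcripts of the 33 genes, limma called 1 (0.0135% of all transcripts), the short *Pkm-206* of 725 bases. It had 122 and 238 normalized counts under WT and 0 in each library labelled p75NTR-/-. Against the limit of 3 counts per library this was 55.4-fold lower, a figure that covers counting only. These values are Salmon estimates from reads that overlapping *Pkm* transcripts share, an error that the figure leaves out. *Pkm-206* was no longer called with a pseudocount of 10, on TPM, in edgeR, with the replicate number as a block or when any 1 library labelled p75NTR-/- was left out.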

How the data were processed

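RNA-Seq of 5 NSPC libraries started from 500 ng RNA with a stranded mRNA kit. The authors quantified reads with Salmon 0.10.2 on Ensembl transcripts (GRCm38.p6) and scaled them with DESeq2 1.22.0 in R 3.6.1. The deposited signal is a count scaled by the size factor of its library with 0.5 added. With 0.5 removed, 100% of values were whole multiples of 1 count (tolerance 0.1 of a count), which gave 11688211 to 14452396 counts per library. The authors' TPM, kept as a deposited score because 303 of the 22530 lines repeat a transcript, served as an alternative. The authors' baseMean score and their deposited log2 fold change, p-value and adjusted p-value were not used. No per-sample column (0) was left aside.

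Unique transcripts were summed per symbol and compared with limma 3.58.1 (R 4.3.3) on log2(sum + 1) over all 5 libraries without covariates, with Benjamini-Hochberg adjustment over all genes and the study's limits. This scale understates changes of low genes. Alternatives were pseudocounts of 0.5 and 10, a filter at a mean of 50, edgeR 4.0.16, DESeq2 1.42.0, TPM, the replicate number as a block and leaving out each library; the fits were tested on simulated data. P-values measure the spread between these libraries only, and intervals of ratios (exact binomial, 95%) cover counting error only. The members and lists were chosen with earlier results of these data known. Genes named by rule were the 12 with the widest ratio between libraries, the 8 highest in TPM, 9 regulators and targets, and up to 3 of each other list. The other members complete each role, and Vim, S100b, Aldh1l1, Slc1a2, Slc1a3 and Kdr were named after their values were seen. Promoters came from RefSeq (GRCm38.p6) and exons from GENCODE M21, in which a second gene shares the symbol Aldoa (0.1% of its sum).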

Additional observations from a re-analysis of the deposited data

How the results depend on the processing

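No gene of the 33 was called under any alternative run, and 32 of 33 stayed lower under the p75NTR-/- label with the other pseudocounts, the filter, edgeR, DESeq2 and TPM (medians −0.46 to −0.54). With the replicate number as a replicate block the median was −0.45 and 29 of 33 were lower, with *Pfkp* at 0.0071, *Eno2* at 0.13 and *Adm* at 0.032 turned. Number 2 occurs only under the p75NTR-/- label, so the block takes up that library. The differences of this run are thus those without replicate 2 labelled p75NTR-/-. Deviations from the label means correlated at 0.26 (number 1) and 0.48 (number 4) between same-numbered libraries, from 2 pairs only. The deviations of the 2 WT libraries mirror each other, so these are not 2 separate checks. The labels do not tie the numbers to a litter or day. Leaving out 1 library moved the median from −1.19 (without replicate 4 labelled p75NTR-/-) to −0.26 (without replicate 1 labelled p75NTR-/-), and the number with an unadjusted p under 0.05 from 0 to 16. The 16 came without replicate 4 labelled p75NTR-/- (10.9% of all genes; lowest adjusted p = 0.40 in limma). Without replicate 4 labelled WT it was 1, *Ldhb*, against 14.0% of all genes. Members lower under p75NTR-/- in every library ranged from 0 to 28 (28 without replicate 4 labelled p75NTR-/-, 8 without replicate 1 and 3 without replicate 4 labelled WT) and members higher from 0 to 3. Log2 differences that changed sign with 1 library left out ranged from −1.16 to 0.31 for *Gpi1*, −1.74 to 0.94 for *Pfkp*, −1.37 to 0.61 for *Pfkfb3*, −0.72 to 0.017 for *Aldoa*, −0.54 to 0.11 for *Gapdh*, −0.43 to 0.18 for *Eno1*, −1.64 to 1.05 for *Eno2*, −0.14 to 0.21 for *Pkm*, −0.68 to 0.053 for *Ldha* and −0.58 to 0.32 for *Adm*. The cause was not tested. Both libraries numbered 4 were above the rest in 28 genes on TPM and 29 with TMM factors. The share over all genes with a mean of at least 50 was taken in the main setting only (23.0%). With 1 library left out the count was 29 to 33, a setting chosen after seeing the data. Fewer libraries make that condition easier to meet, and no share over all genes stands beside it. Of the 70 transcripts of the 33 genes, 0 were called with a pseudocount of 10, edgeR, TPM and the replicate block. With DESeq2 2 were called, which are not named here and have no share over all transcripts beside them. With any 1 library labelled p75NTR-/- left out, 0 were called in limma. With 2 and 3 libraries, precision was limited by their spread and not by depth, except for *P4ha2* and *Slc16a3* at 1 count.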
